A study of Mus musculus with 38 samples.

Results

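This account follows 27 genes of cholesterol synthesis and uptake through all 4 count tables of a study of mouse 4T1 cells, a mammary cancer line that stands in for triple-negative breast cancer. The genes were taken from a named list, in 5 steps: 8 of the mevalonate pathway, 3 that make and close squalene, 10 that act after squalene, 2 placed under uptake and 4 that regulate the sterol regulatory element binding protein (SREBP). They are 27 of the 55487 genes in the culture and brain tables and of the 57126 genes in the tumour and miRNA tables. Every member passed the filter on low counts in each table.

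The culture experiment held 3 libraries of 4T1 cells exposed to insulin resistant (IR) adipocyte exosomes, 3 of cells exposed to insulin sensitive (IS) adipocyte exosomes and 3 of untreated cells, with 72 h of exposure. Exosomes are small vesicles that cells release, and the adipocytes were differentiated from the mouse fibroblast line 3T3-L1. The miRNA experiment held 3 libraries of 4T1 cells titled as treated with miR-145a-3p and 2 titled as treated with a scrambled RNA. The brain clonogenic assay, in which cells of a tissue are grown as colonies, held 5 IR, 5 IS and 5 control libraries, and the primary tumours held 5 IR and 4 control libraries. What the IR and IS groups of the brain and tumour experiments received is given by these names alone, and the labels name no animals. All samples are called biological replicates without a statement of separate cultures or mice, so the p-values measure the spread between these libraries, part of which may be technical.

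Animal cells build cholesterol from acetyl-CoA through mevalonate, isoprenoid diphosphates, squalene and lanosterol. The isoprenoids also feed protein prenylation, ubiquinone and dolichol, so the early steps serve more than sterols. When membrane sterol is low, SCAP carries SREBP-2, the product of Srebf2, out of the endoplasmic reticulum to be cut into an active transcription factor that raises the genes of synthesis and uptake. When sterol is high, INSIG proteins hold SCAP back and these genes fall. Cancer cells draw on both synthesis and uptake for membrane growth.

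Promoter sequences are shown for 6 members that the results below turn on, since SREBP-2 acts with the factor NF-Y through short promoter motifs. Each runs 5′ to 3′ on the strand of the gene, from 250 bases before its start to 50 bases after it, from RefSeq on GRCm38.p6. Capitals mark the sterol regulatory element in its classical form with at most 1 mismatch, and CCAAT, the NF-Y motif, on either strand, so that CCAAT on the other strand reads ATTGG. Hmgcs1, Srebf2 and Nsdhl are the 3 members with a match to the longer motif. Insig1 had the largest falls with exosomes, and Ggps1 and Scap are members that did not pass the test with exosomes.
Hmgcs1 (chr13:119690101-119690400, plus strand): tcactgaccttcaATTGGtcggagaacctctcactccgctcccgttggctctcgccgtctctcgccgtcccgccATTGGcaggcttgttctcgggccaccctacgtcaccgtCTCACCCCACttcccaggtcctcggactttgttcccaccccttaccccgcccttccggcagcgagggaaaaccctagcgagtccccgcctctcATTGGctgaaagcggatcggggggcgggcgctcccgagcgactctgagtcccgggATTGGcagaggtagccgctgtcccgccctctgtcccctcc
Srebf2 (chr15:82147019-82147318, plus strand): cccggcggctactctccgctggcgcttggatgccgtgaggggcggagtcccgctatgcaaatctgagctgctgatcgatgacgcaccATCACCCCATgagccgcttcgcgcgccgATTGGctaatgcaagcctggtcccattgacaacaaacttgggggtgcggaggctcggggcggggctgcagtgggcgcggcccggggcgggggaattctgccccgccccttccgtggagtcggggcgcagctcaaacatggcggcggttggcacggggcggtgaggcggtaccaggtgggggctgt
Nsdhl (chrX:72918271-72918570, plus strand): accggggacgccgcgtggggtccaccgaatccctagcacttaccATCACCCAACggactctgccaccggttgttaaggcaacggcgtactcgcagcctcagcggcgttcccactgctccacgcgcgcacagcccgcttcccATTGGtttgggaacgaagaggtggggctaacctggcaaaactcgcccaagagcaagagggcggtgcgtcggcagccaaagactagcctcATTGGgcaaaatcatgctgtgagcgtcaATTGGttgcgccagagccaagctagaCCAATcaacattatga
Insig1 (chr5:28071162-28071461, plus strand): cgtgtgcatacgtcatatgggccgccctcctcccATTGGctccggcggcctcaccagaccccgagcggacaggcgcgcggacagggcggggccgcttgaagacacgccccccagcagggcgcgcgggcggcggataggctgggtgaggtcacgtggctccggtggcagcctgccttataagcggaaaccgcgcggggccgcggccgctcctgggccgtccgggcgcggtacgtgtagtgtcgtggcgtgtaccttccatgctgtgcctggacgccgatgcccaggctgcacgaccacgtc
Ggps1 (chr13:14063439-14063738, minus strand): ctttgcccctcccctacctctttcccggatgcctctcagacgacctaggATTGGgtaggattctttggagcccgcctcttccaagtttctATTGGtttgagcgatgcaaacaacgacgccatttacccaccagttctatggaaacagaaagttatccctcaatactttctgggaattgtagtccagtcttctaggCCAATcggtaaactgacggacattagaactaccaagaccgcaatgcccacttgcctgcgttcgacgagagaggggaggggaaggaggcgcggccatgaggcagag
Scap (chr9:110333038-110333337, plus strand, the first of its listed starts): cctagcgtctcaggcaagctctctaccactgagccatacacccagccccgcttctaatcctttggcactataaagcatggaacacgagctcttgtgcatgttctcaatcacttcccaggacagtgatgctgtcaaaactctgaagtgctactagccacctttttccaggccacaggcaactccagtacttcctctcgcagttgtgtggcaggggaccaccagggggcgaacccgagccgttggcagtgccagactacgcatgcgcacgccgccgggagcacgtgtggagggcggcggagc

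RefSeq promoters were at hand for 22 of the 27 members. Those without an entry were Fdft1, Fdps, Sqle, Stard4 and Npc1. The longer motif lay 138 bases before the start of Hmgcs1 as CTCACCCCAC, 163 bases before the start of Srebf2 as ATCACCCCAT and 206 bases before the start of Nsdhl as ATCACCCAAC. In all, 3 of the 22 members, or 13.6%, held it, against 2.22% of 27025 genes. CCAAT stood in at least 1 window of 19 members, or 86.4%, against 41.06% of all genes. Acat2, Erg28 and Scap lacked it. The 2 motifs share no overlap in the printed windows. Ggps1 carried CCAAT at 3 positions. A match is a description of these letters and not a bound site.

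Library totals ran from 8455412 to 12785398 counts in culture, 8790616 to 13272583 in brain, 17392887 to 21909370 in tumours and 24972592 to 32637552 in the miRNA experiment. Levels are given as CPM, the counts of the genes tested set to a common library size after scaling between libraries. They compare a gene between libraries of 1 table and not genes with each other, because they are not per length. The threshold for a call was an adjusted p of 0.05, and "rose" and "fell" are used for called genes. In culture the keratins and Epcam expected of 4T1 cells were present: the 6 epithelial markers summed to 3094 to 3162 CPM with IR exosomes, 2623 to 2681 CPM with IS exosomes and 3551 to 3569 CPM in untreated cells. Of these 6 markers, 4 fell with IR exosomes and 6 fell with IS exosomes, where 6.9% and 9.32% of all genes tested were called lower. Of 6 fibroblast markers Pdgfra alone was tested, and it rose to 22.4 to 24.3 CPM with IR exosomes and 25.2 to 31.0 CPM with IS exosomes, against 11.3 to 15.1 CPM in untreated cells. The part of the epithelial and Pdgfra shifts in the sterol results was not tested. Col3a1 and Lum were at 0 and Dcn at most at 0.24 CPM in every culture library, and no marker of endothelium, astrocytes or adipocytes passed the filter in culture. Of 6 leukocyte markers 2 passed it, and of 4 oligodendrocyte markers 1, and none of these was called. In untreated cells Csf1r had 9.66 to 11.8 CPM, Cd68 1.92 to 2.95 CPM and Mbp 29.2 to 33.2 CPM. Ptprc, Adgre1, Lyz2 and Itgam were at 0 there.

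Exosomes of IR adipocytes were set against no treatment to ask what these vesicles change in 4T1 cells. Of the 27 members, 21 fell and 0 rose, where 6.9% of the 10888 genes tested were called lower and 13.6% were called in either direction. The median log2 fold change was -0.62 over the members and 0.00 over all genes tested. By step, 7 of 8 mevalonate genes, 3 of 3 squalene genes, 8 of 10 post-squalene genes, 1 of 2 uptake genes and 2 of 4 SREBP regulators fell. With IS exosomes, set against the same untreated libraries, 21 members fell and 0 rose, where 9.32% of all genes were called lower and 19.3% in either direction, with a median of -0.86 over the members. The step counts were again 7 of 8, 3 of 3, 8 of 10, 1 of 2 and 2 of 4. Because the 2 comparisons share their untreated libraries, their values are given side by side and not as support for each other. RNA came from whole cultures, in which fewer cells of a kind and less RNA per cell cannot be told apart.

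**Figure D1:**
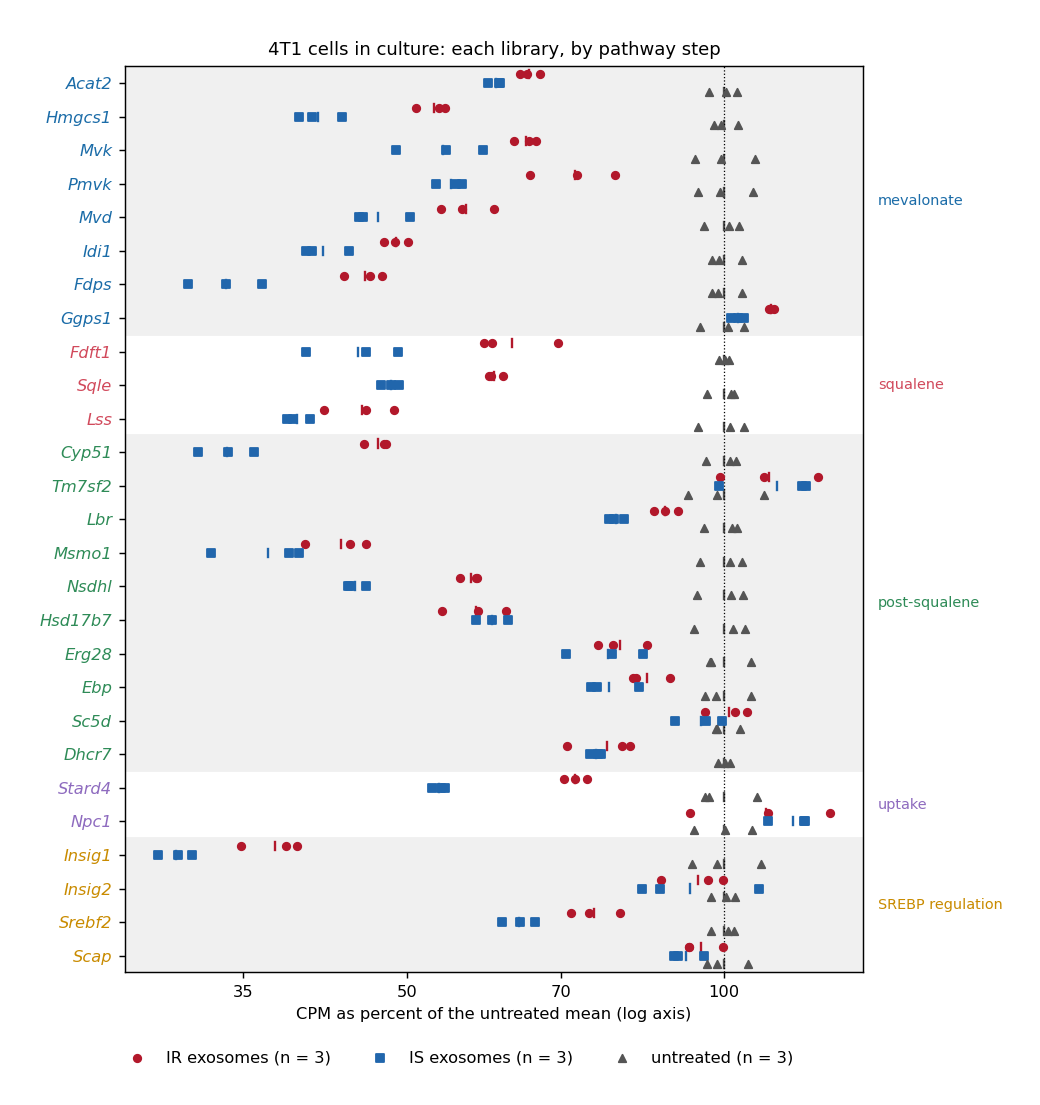
CPM of each member in each culture library as a percent of the mean of the untreated libraries, on a log axis, with genes grouped by pathway step. Circles are IR exosome libraries, squares IS exosome libraries and triangles untreated libraries (3 each), and short vertical lines are group means. In most rows of the mevalonate and squalene steps the squares lie furthest left, the circles between, and the triangles at the dotted line. Exosome group means of Ggps1, Tm7sf2, Sc5d, Npc1, Insig2 and Scap lie at 91.9% to 116% of the untreated mean, with single libraries further out.

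The mevalonate steps start with Acat2, which joins 2 acetyl-CoA units, and Hmgcs1 (ENSMUSG00000093930), which makes hydroxymethylglutaryl-CoA. Hmgcs1 had 90.8, 96.6 and 95.4 CPM with IR exosomes, 77.3, 70.3 and 72.4 CPM with IS exosomes and 174, 176 and 183 CPM in untreated cells. The 3 groups did not overlap, with IS lowest. The fall was 1.89-fold with IR exosomes (log2 -0.92 ± 0.05 SE, adjusted p = 1.02e-09) and 2.42-fold with IS exosomes (log2 -1.28 ± 0.05 SE, adjusted p = 1.41e-11). Acat2 had 91.2, 87.3 and 88.6 CPM with IR exosomes, 81.5, 83.4 and 83.5 CPM with IS exosomes and 132, 140.2 and 137 CPM in untreated cells. It fell less than Hmgcs1, by 1.53-fold and 1.65-fold in the same order of exosomes. Its near-identical neighbour Acat3 had 427 to 567 counts in these libraries against 711 to 1532 for Acat2, so reads of the pair may have been split between them.

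Mvk, Pmvk and Mvd, which phosphorylate mevalonate and then decarboxylate it to isopentenyl diphosphate, all fell with either kind of exosome, and no exosome library reached the untreated range. Mvk had 22.4, 22.7 and 21.6 CPM with IR exosomes, 16.7, 18.7 and 20.3 CPM with IS exosomes and 32.2, 36.7 and 34.00 CPM in untreated cells. Pmvk had 19.3, 17.8 and 16.05 CPM with IR exosomes, 13.1, 13.8 and 13.7 CPM with IS exosomes and 23.2, 24.3 and 26.1 CPM in untreated cells. Mvd had 16.9, 15.8 and 15.04 CPM with IR exosomes, 14.1, 12.7 and 12.6 CPM with IS exosomes and 26.7, 28.8 and 28.2 CPM in untreated cells. Their log2 fold changes with IR exosomes were -0.62, -0.47 and -0.81 in that order of genes, and with IS exosomes -0.88, -0.86 and -1.09, with SE of 0.08 to 0.10.

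Idi1 interconverts the isoprenoid building blocks and Fdps (ENSMUSG00000059743) joins them into farnesyl diphosphate, the last intermediate shared by sterols and prenyl groups. Idi1 had 100.1, 103 and 97.8 CPM with IR exosomes, 83.6, 82.5 and 90.6 CPM with IS exosomes and 203, 213 and 199.8 CPM in untreated cells. Fdps had 97.4, 94.9 and 89.6 CPM with IR exosomes, 63.9, 75.00 and 69.2 CPM with IS exosomes and 200.3, 203 and 214 CPM in untreated cells. Fdps fell 2.19-fold with IR exosomes (adjusted p = 4.05e-10) and 2.97-fold with IS exosomes (adjusted p = 7.02e-12). In the annotation, the exons of Fdps overlap those of the predicted gene Gm43738 on the same strand, so its counts may hold or lose shared reads. Ggps1, which lengthens farnesyl to geranylgeranyl diphosphate for prenylation and stands off the sterol line, behaved otherwise. It had 31.5, 31.9 and 31.5 CPM with IR exosomes, 29.00, 29.8 and 29.4 CPM with IS exosomes and 28.8, 27.1 and 29.8 CPM in untreated cells, and its log2 fold changes of 0.15 ± 0.07 (SE) and 0.04 ± 0.07 (SE) did not pass the test.

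Fdft1 commits farnesyl diphosphate to sterols as squalene, Sqle oxidises squalene, and Lss closes the ring to lanosterol. All 3 fell with either kind of exosome. Fdft1 had 56.1, 47.8 and 48.6 CPM with IR exosomes, 36.9, 32.4 and 39.6 CPM with IS exosomes and 79.7, 81.6 and 80.8 CPM in untreated cells. Sqle had 111, 111 and 114 CPM with IR exosomes, 90.9, 87.3 and 89.4 CPM with IS exosomes and 178, 189 and 187 CPM in untreated cells. Lss had 35.3, 37.5 and 32.2 CPM with IR exosomes, 30.1, 29.7 and 31.2 CPM with IS exosomes and 77.97, 80.5 and 72.7 CPM in untreated cells. No library of any exosome group reached the lowest untreated library for these genes. The median log2 fold change of the step was -0.72 with IR exosomes and -1.14 with IS exosomes, with Lss the largest in each (-1.14 ± 0.06 SE with IR and -1.34 ± 0.06 SE with IS). Exons of Fdft1 overlap those of Ctsb on the opposite strand, and the sources used here do not give the strand setting of the counting.

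The post-squalene genes ranged from -1.20 to 0.14 on the log2 scale with IR exosomes and from -1.56 to 0.16 with IS exosomes, with medians of -0.35 and -0.39 in that order. The largest falls of this step were in Cyp51 (ENSMUSG00000001467), the lanosterol demethylase, and Msmo1, the first enzyme of the removal of the methyl groups at carbon 4. Cyp51 had 61.7, 61.9 and 58.97 CPM with IR exosomes, 43.8, 41.1 and 46.3 CPM with IS exosomes and 124, 131 and 133 CPM in untreated cells, a fall of 2.13-fold with IR and 2.95-fold with IS exosomes (adjusted p = 4.44e-10 and 6.35e-12). Msmo1 had 48.4, 55.2 and 53.4 CPM with IR exosomes, 47.8, 39.4 and 46.7 CPM with IS exosomes and 126, 122 and 115 CPM in untreated cells, a fall of 2.30-fold with IR and 2.69-fold with IS exosomes. Exons of Cyp51 overlap those of Akap9 on the opposite strand.

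Nsdhl and Hsd17b7 complete the demethylation at carbon 4, and ERG28 is known in yeast as the scaffold of that complex. Nsdhl had 18.3, 17.6 and 18.2 CPM with IR exosomes, 13.8, 13.8 and 14.4 CPM with IS exosomes and 29.5, 32.7 and 31.8 CPM in untreated cells, a log2 fall of -0.80 ± 0.08 (SE) with IR and -1.16 ± 0.08 (SE) with IS exosomes. Hsd17b7 had 25.8, 23.9 and 27.4 CPM with IR exosomes, 26.6, 27.6 and 25.7 CPM with IS exosomes and 46.2, 45.03 and 41.3 CPM in untreated cells, so here the exosome groups overlapped each other. Erg28 had 27.3, 29.4 and 26.4 CPM with IR exosomes, 29.2, 24.6 and 27.2 CPM with IS exosomes and 33.8, 36.9 and 33.7 CPM in untreated cells. The Erg28 fall with IR exosomes, -0.33 on the log2 scale, was lost without untreated library 2, at an adjusted p of 0.0561.

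The remaining post-squalene genes changed less than Cyp51 and Msmo1 or did not pass the test. Lbr, a sterol reductase that also anchors chromatin at the inner nuclear membrane, had 199, 205 and 194 CPM with IR exosomes, 178, 176 and 182 CPM with IS exosomes and 233, 217 and 231 CPM in untreated cells, a log2 fall of -0.19 ± 0.04 (SE) with IR and -0.34 ± 0.04 (SE) with IS exosomes. Tm7sf2, the other reductase of the same step, had 6.42 to 7.95 CPM with IR exosomes, 6.42 to 7.75 CPM with IS exosomes and 5.99 to 7.08 CPM in untreated cells, with overlapping groups, and it shares exon bases with Vps51. Dhcr7, the last reductase of 1 branch, had 43.01, 37.5 and 42.3 CPM with IR exosomes, 40.1, 39.4 and 40.4 CPM with IS exosomes and 53.5, 52.2 and 52.96 CPM in untreated cells. It fell 1.29-fold with IR and 1.32-fold with IS exosomes. Sc5d, the lathosterol desaturase, had 60.00, 58.4 and 54.7 CPM with IR exosomes, 51.2, 54.8 and 56.8 CPM with IS exosomes and 56.1, 59.01 and 56.01 CPM in untreated cells, and did not pass the test in either comparison. Ebp, the sterol isomerase, fell 1.19-fold with IR exosomes at an adjusted p of 0.0448, a call that 10 of the alternative settings ended with adjusted p of 0.054 to 0.175, and 1.29-fold with IS exosomes at 0.00296.

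The 2 members placed under uptake act inside the cell: Stard4 carries sterol between membranes in the cytosol, and Npc1 exports cholesterol from lysosomes after lipoproteins are broken down there. Stard4 had 46.5, 48.9 and 47.7 CPM with IR exosomes, 35.6, 35.9 and 34.9 CPM with IS exosomes and 63.4, 63.9 and 70.9 CPM in untreated cells. Its 3 groups did not overlap, and it fell 1.39-fold with IR (adjusted p = 2.29e-05) and 1.87-fold with IS exosomes (adjusted p = 1.63e-08). Npc1 had 15.8, 18.8 and 21.5 CPM with IR exosomes, 20.3, 18.8 and 20.3 CPM with IS exosomes and 18.1, 15.96 and 17.1 CPM in untreated cells. All IS libraries of Npc1 stood above the untreated ones, yet its log2 fold changes of 0.13 ± 0.11 (SE) with IR and 0.22 ± 0.11 (SE) with IS exosomes did not pass the test, and its exons overlap those of Rmc1 on the opposite strand.

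Among the regulators the fall of Insig1 (ENSMUSG00000045294) was the largest of all 27 members. Insig1 had 48.1, 46.99 and 42.6 CPM with IR exosomes, 37.1, 35.6 and 38.3 CPM with IS exosomes and 114, 120.2 and 132 CPM in untreated cells. That is 2.67-fold lower with IR exosomes (log2 -1.42 ± 0.06 SE, adjusted p = 1.96e-10) and 3.30-fold lower with IS exosomes (log2 -1.72 ± 0.07 SE, adjusted p = 1.35e-11). INSIG1, which holds SCAP in the endoplasmic reticulum, is itself a target of SREBP, whereas INSIG2 is known to be less dependent on it. Insig2 had 35.7, 36.9 and 32.3 CPM with IR exosomes, 30.95, 32.2 and 39.98 CPM with IS exosomes and 37.9, 37.2 and 35.97 CPM in untreated cells, with overlapping groups and log2 fold changes of -0.08 ± 0.09 (SE) and -0.10 ± 0.09 (SE) that did not pass the test.

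Srebf2, which encodes the transcription factor and is also among its own targets, had 205, 191 and 184 CPM with IR exosomes, 164, 158 and 169.9 CPM with IS exosomes and 249, 259 and 262 CPM in untreated cells. It fell 1.33-fold with IR (adjusted p = 4.85e-06) and 1.56-fold with IS exosomes (adjusted p = 2.32e-08). Its 3 groups did not overlap. Scap, the escort protein, had 193, 179 and 179 CPM with IR exosomes, 173, 175 and 185 CPM with IS exosomes and 186, 191 and 204 CPM in untreated cells. Its log2 fold changes of -0.07 ± 0.04 (SE) and -0.12 ± 0.04 (SE) did not pass the test, although a fit of the IS and untreated libraries alone called it lower at an adjusted p of 0.0459.

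The direct comparison of IR with IS exosomes asked whether the state of the donor adipocyte matters. Of the 27 members 12 were higher with IR exosomes and 0 lower, where 2.82% of all genes tested were called higher and 6.27% in either direction. By step these were 4 of 8 mevalonate genes, 2 of 3 squalene genes, 3 of 10 post-squalene genes, 1 of 2 uptake genes and 2 of 4 regulators. For 18 members every IR library stood above every IS library, where 13.5% of all genes tested showed that. The median log2 fold change of the members was 0.22. Epithelial markers moved the same way: 4 of 6 were higher with IR than with IS exosomes, with a median log2 fold change of 0.25 over the 6, and their part in the member differences was not tested.

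The 7 calls given first held in every alternative setting, and these genes had also separated clearly from untreated cells above. Fdft1 was 1.39-fold higher with IR than with IS exosomes (log2 0.47 ± 0.07 SE, adjusted p = 0.00171), Cyp51 1.39-fold (log2 0.47 ± 0.06 SE, adjusted p = 0.000192) and Fdps 1.36-fold (log2 0.44 ± 0.06 SE, adjusted p = 0.000357). Stard4 was 1.35-fold higher (log2 0.43 ± 0.06 SE, adjusted p = 0.000652). Hmgcs1, Sqle and Srebf2 were higher by log2 0.36 ± 0.05, 0.33 ± 0.04 and 0.23 ± 0.04 (SE). The IR libraries of these 7 genes lay between the IS and the untreated libraries without overlap. These genes were called in the same libraries, and the share of all genes with that order was not computed, so the order is only a description.

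The other 5 calls were less stable. Pmvk, Idi1, Lbr, Nsdhl and Insig1 were higher by log2 0.39, 0.23, 0.16, 0.36 and 0.31, and each lost its call when some single library was left out, with adjusted p of 0.0506 to 0.0957. The count of members called dropped to 7 without IS library 1 and to 7 without IS library 2. DESeq2 called 10, without Pmvk and Nsdhl. Hsd17b7, Tm7sf2 and Npc1 were the 3 members with a negative value, between -0.09 and -0.02, and their groups overlapped.

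**Figure D2:**
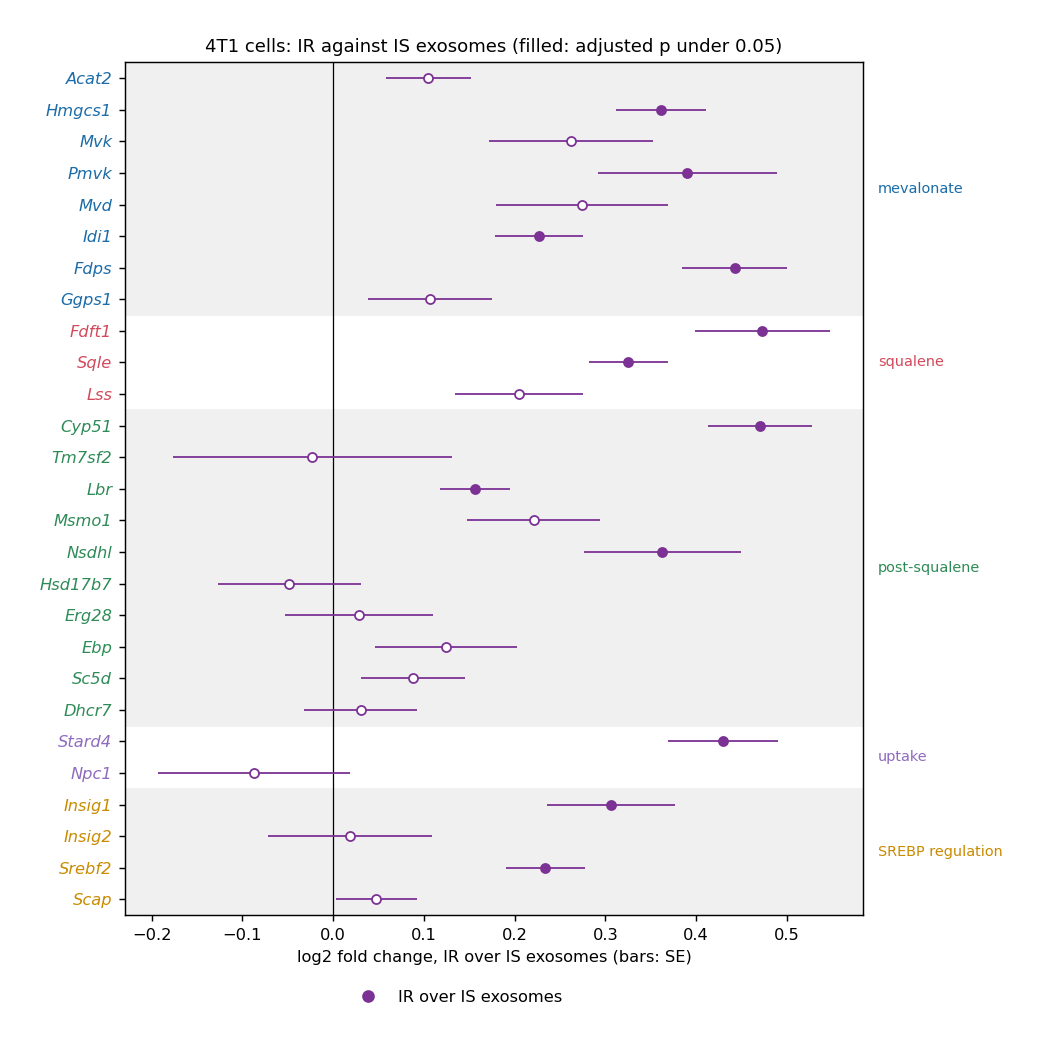
log2 fold change of each member between cells given IR and cells given IS exosomes, with bars of 1 SE, grouped by pathway step. Filled points have an adjusted p under 0.05 and open points do not. All 12 filled points lie right of 0, and the mevalonate and squalene rows are all on that side.

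A further 3 lists of the same pathway were examined in culture, where 13.6% of all genes were called with IR and 19.3% with IS exosomes. Of 14 genes of the isoprenoid branches, 1 fell and 0 rose with IR exosomes, and 1 fell and 0 rose with IS exosomes. Rabggtb, a subunit of the transferase that prenylates RAB proteins, was lower with IR exosomes than in untreated cells (log2 -0.26 ± 0.06 SE, adjusted p = 0.00917) and lower than with IS exosomes (log2 -0.24 ± 0.06 SE, adjusted p = 0.026). Zmpste24, the protease that trims prenylated lamin A, was the gene lower with IS exosomes (log2 -0.19 ± 0.06 SE). Of 13 genes of SREBP processing and sterol-dependent degradation, 0 passed with IR exosomes (edgeR) and 2 fell with IS exosomes: Vcp, the ATPase that extracts proteins for degradation, and Mbtps2, the second protease that cuts SREBP (log2 -0.12 ± 0.03 and -0.22 ± 0.06 SE).

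Genes of sterol transport, storage and lysosomal release moved in both directions. Of 18 genes, 17 were tested, of which 2 fell and 2 rose with IR exosomes and 1 fell and 5 rose with IS exosomes. Tmem97, a sterol-regulated membrane protein that binds NPC1, fell with IR (log2 -0.41 ± 0.05 SE, adjusted p = 8.06e-06) and with IS exosomes (log2 -0.49 ± 0.05 SE, adjusted p = 1.27e-06). Npc2, which hands cholesterol to NPC1 in the lysosome, rose with IR (log2 0.34 ± 0.04 SE) and with IS exosomes (log2 0.40 ± 0.04 SE). Nceh1, a hydrolase of cholesterol esters, rose with IR (log2 0.39 ± 0.06 SE) and with IS exosomes (log2 0.48 ± 0.06 SE). No gene of this list passed between IR and IS exosomes, where the list median was -0.01.

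The miRNA experiment compared libraries titled miR-145a-3p with libraries titled scramble, all of 4T1 cells. The labels of this experiment disagree: the libraries titled miR-145a-3p carry library names that begin with ScRNA, and those titled scramble carry names that begin with miR145. The column headers of the deposited counts are the same as these library names. Groups here follow the titles, and if the library names are the right ones, every direction in the next paragraphs turns round. The 2 libraries titled scramble stood further apart than those titled miR-145a-3p, with a chi-square per degree of freedom over genes of 48.5 between them, against 5.13 to 6.55 among the libraries titled miR-145a-3p. Without scramble library 1 the test called 21 members higher, and without scramble library 2 it called 22 higher and 2 lower. The sequence of miR-145a-3p is not printed here.

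Of the 27 members, 22 were higher and 0 lower in the libraries titled miR-145a-3p than in those titled scramble. Among all 10751 genes tested, 28.0% were called higher and 56.7% in either direction, so a large share of the transcriptome differed between the 2 groups. The median log2 fold change was 0.61 over the members and -0.01 over all genes. By step, 7 of 8 mevalonate genes, 3 of 3 squalene genes, 8 of 10 post-squalene genes, 1 of 2 uptake genes and 3 of 4 regulators were higher. The step medians were 0.75, 0.76, 0.42, 0.48 and 0.66 in that order.

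Hmgcs1 had 144, 159.9 and 153 CPM in libraries titled miR-145a-3p, against 61.6 and 58.97 CPM in libraries titled scramble. It was the largest difference of the list, 2.53-fold (log2 1.34 ± 0.06 SE, adjusted p = 3.21e-05). Fdps had 189, 199.8 and 190.0 CPM in libraries titled miR-145a-3p, against 85.6 and 80.03 CPM in libraries titled scramble, and was 2.33-fold higher. Idi1 had 147, 158 and 159 CPM in libraries titled miR-145a-3p, against 70.8 and 65.6 CPM in libraries titled scramble, and was 2.27-fold higher. In these 3 genes each library titled miR-145a-3p had more than both titled scramble. The same held for 23 of the 27 members, and 3 had the reverse order. The share of all genes with either order was not computed. Ggps1 again stood apart within the step, with 27.03, 28.1 and 27.4 CPM in libraries titled miR-145a-3p, against 31.1 and 30.3 CPM in libraries titled scramble (log2 -0.16 ± 0.07 SE, adjusted p = 0.0748). It was called lower with upper quartile scaling, at an adjusted p of 0.0304.

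Fdft1, Sqle and Lss were higher by log2 0.38 ± 0.05, 0.85 ± 0.08 and 0.76 ± 0.08 (SE) in the libraries titled miR-145a-3p. Fdft1 had 81.6, 83.1 and 82.3 CPM in libraries titled miR-145a-3p, against 62.5 and 64.1 CPM in libraries titled scramble. Cyp51 had 125, 133 and 129 CPM in libraries titled miR-145a-3p, against 68.97 and 63.5 CPM in libraries titled scramble. Nsdhl, with 34.97, 37.2 and 35.3 CPM in libraries titled miR-145a-3p, against 18.2 and 16.1 CPM in libraries titled scramble, was the most different post-squalene gene (2.09-fold, adjusted p = 0.000102). Sc5d, which had not passed with exosomes, was higher here by log2 0.30 ± 0.06 (SE, adjusted p = 0.00508). Erg28 was not, with 38.6, 36.02 and 35.96 CPM in libraries titled miR-145a-3p, against 42.1 and 39.1 CPM in libraries titled scramble.

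Stard4 had 40.5, 42.8 and 42.6 CPM in libraries titled miR-145a-3p, against 18.8 and 15.4 CPM in libraries titled scramble, 2.45-fold higher (adjusted p = 9.18e-05). Npc1 had 14.1, 15.2 and 13.6 CPM in libraries titled miR-145a-3p, against 20.9 and 15.3 CPM in libraries titled scramble, and its log2 fold change of -0.34 ± 0.14 (SE) did not pass the test. Npc1 was called lower without scramble library 2, at an adjusted p of 0.000583, and with upper quartile scaling, at 0.0434. Insig1 had 100.1, 117 and 106 CPM in libraries titled miR-145a-3p, against 57.7 and 52.3 CPM in libraries titled scramble. Srebf2 had 208, 204 and 218 CPM in libraries titled miR-145a-3p, against 116 and 109 CPM in libraries titled scramble. Scap was higher by log2 0.41 ± 0.05 (SE, adjusted p = 0.000608), while Insig2 overlapped between the groups at 26.7 to 29.2 CPM in libraries titled miR-145a-3p and 25.2 to 28.8 CPM in libraries titled scramble. Pmvk and Ebp were the weakest of the 22, and each lost its call in several alternatives, with adjusted p of 0.0584 to 0.176. Sc5d and Dhcr7 lost theirs in the edgeR fit with replicate number as a block, at adjusted p of 0.0659 and 0.0565.

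**Figure D3:**
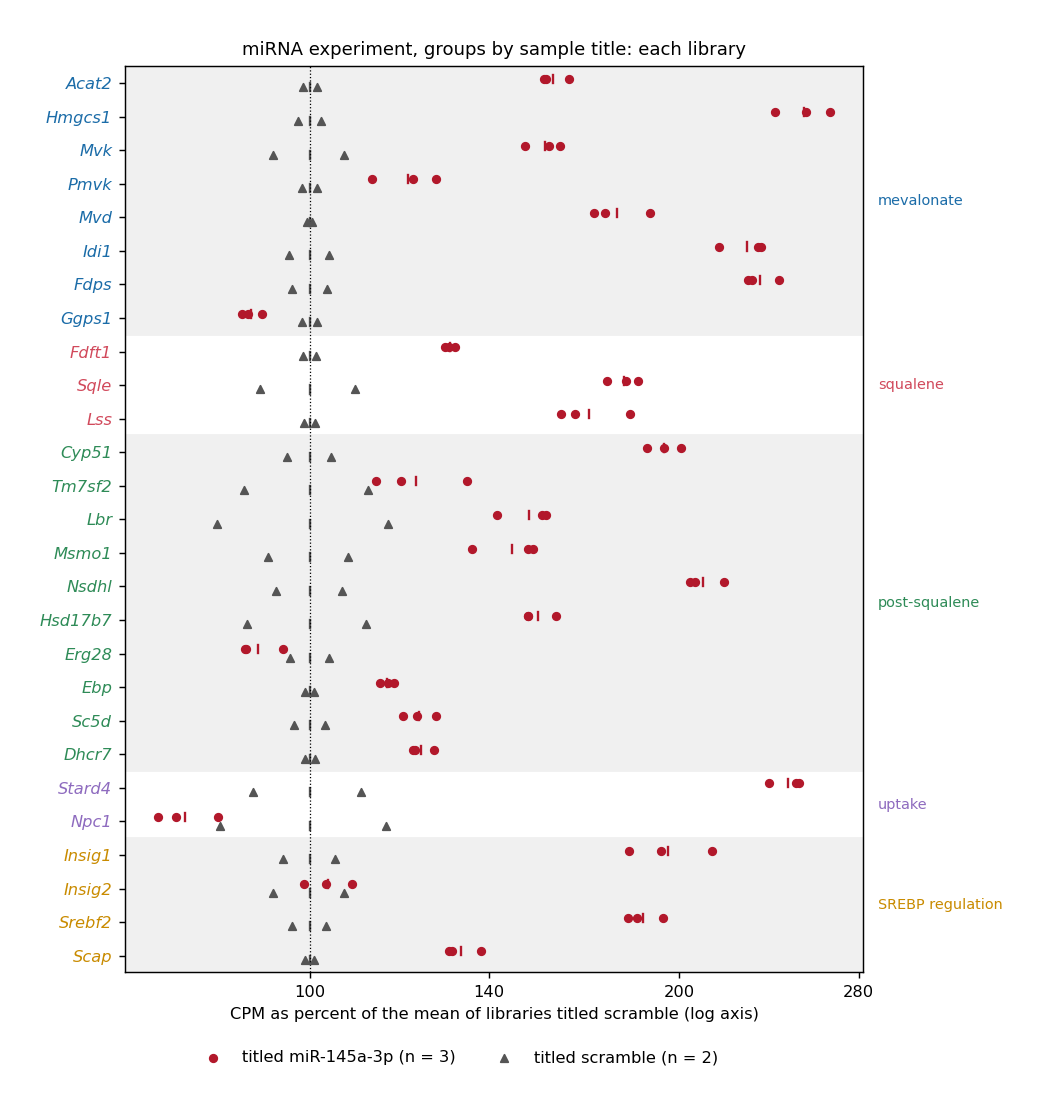
CPM of each member in each library of the miRNA experiment as a percent of the mean of the libraries titled scramble, on a log axis, grouped by pathway step. Circles are the 3 libraries titled miR-145a-3p and triangles the 2 titled scramble, and short vertical lines are group means. Most circles lie right of both triangles, while Ggps1, Erg28 and Npc1 lie left of them and Insig2 is mixed.

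The other pathway lists were mixed in this experiment, and their shares called lay near the 56.7% of all genes. Of 13 genes of SREBP processing and sterol-dependent degradation, 7 were higher and 2 lower in the libraries titled miR-145a-3p, led by Nploc4, a cofactor of VCP, and Mbtps1, the first protease that cuts SREBP (log2 0.54 ± 0.06 and 0.46 ± 0.06 SE). Of 14 genes of the isoprenoid branches, 4 were higher and 5 lower, with Rabggtb lower (log2 -0.64 ± 0.08 SE) and Icmt, which methylates prenylated proteins, higher (log2 0.38 ± 0.06 SE). Of 17 tested genes of sterol transport, storage and lysosomal release, 3 were higher and 7 lower. Scarb1, a lipoprotein receptor, was higher (log2 0.61 ± 0.06 SE) and Gramd1b, which moves sterol from the plasma membrane to the endoplasmic reticulum, lower (log2 -1.74 ± 0.19 SE).

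Side by side, most members were lower with exosomes and higher in the libraries titled miR-145a-3p, when the miRNA groups follow their titles. These experiments share no library, and each was counted and tested in its own table. Of the 21 members that fell with IR exosomes and the 22 that were higher in the libraries titled miR-145a-3p, 20 were common to both. With so many of the 27 members called in each experiment, most calls had to be shared. The common count is therefore a description and no sign of a link between the experiments. Among all genes tested, 6.9% were called lower with IR exosomes, 9.32% lower with IS exosomes and 28.0% higher in the miRNA experiment. The overlap over all genes was not counted. The common count was also 20 for IS exosomes. Erg28 fell with exosomes and was not called in the miRNA experiment. Sc5d and Scap were called in the miRNA experiment alone, and Ggps1, Tm7sf2, Npc1 and Insig2 passed in neither. Whether these 7 members differ in response between the experiments was not tested.

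Across the 27 members, Pearson's r between the log2 fold changes was -0.72 for IR exosomes against the miRNA experiment and -0.77 for IS exosomes. Over the 10384 genes tested in both tables the same values were -0.16 and -0.24. These are descriptions across genes, which are not independent replicates, and they turn sign if the library names of the miRNA experiment are the right ones. The order of sizes was not the same in the 2 experiments. Insig1 led the list with exosomes, at -1.42 with IR and -1.72 with IS, and had 0.97 in the miRNA experiment. Stard4 was the second largest in the miRNA experiment, at 1.29, and had -0.47 with IR and -0.90 with IS exosomes. Msmo1 was the second largest with IR exosomes, at -1.20, had -1.43 with IS exosomes and only 0.55 in the miRNA experiment.

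**Figure D4:**
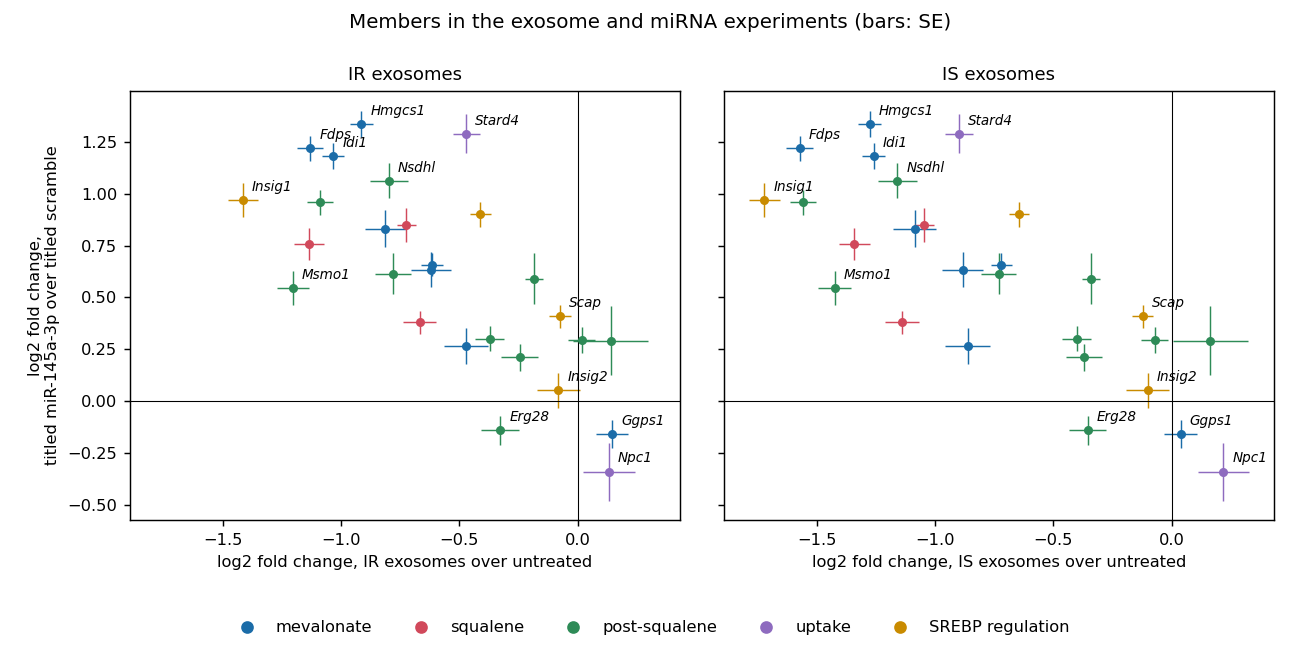
log2 fold change of each member in the miRNA experiment (titled miR-145a-3p over titled scramble, vertical axis) against that with IR exosomes (left panel) or IS exosomes (right panel) over untreated cells, with bars of 1 SE and colours for the pathway step. Most points lie upper left, lower with exosomes and higher in the libraries titled miR-145a-3p. Ggps1, Npc1 and Erg28 lie below 0 on the vertical axis.

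In the brain clonogenic libraries few members passed the test. With IR against control, 1 of 27 fell and 1 rose, where 11.7% of the 12924 genes tested were called in either direction. With IS against the same controls, 1 fell and 0 rose, where 6.46% of all genes were called. Between IR and IS, 0 members were called by edgeR and 0 by DESeq2, 4 had an unadjusted p under 0.05 with edgeR, and 0.0464% of all genes were called. That share is 6 genes by edgeR, while DESeq2 called 604 of the 12924, and edgeR called 1139 without IS library 2 and 334 without the filter. The medians over the members were -0.07, -0.06 and 0.02 in that order.

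Erg28 had 14.1, 12.2, 10.7, 15.6 and 16.8 CPM in IR libraries, 12.8, 13.2, 14.3, 14.8 and 12.1 CPM in IS libraries and 17.02, 19.3, 18.7, 16.6 and 20.3 CPM in control libraries. All IS libraries lay below all controls, and the IR libraries overlapped them slightly. Its log2 fold change was -0.41 ± 0.12 (SE, adjusted p = 0.0377) for IR and -0.45 ± 0.12 (SE, adjusted p = 0.0335) for IS. Stard4 had 12.96, 10.3, 16.5, 8.61 and 14.3 CPM in IR libraries, 8.96, 13.9, 10.05, 9.58 and 9.50 CPM in IS libraries and 9.90, 9.19, 6.81, 7.02 and 8.54 CPM in control libraries, and rose in IR libraries by log2 0.60 ± 0.18 (SE, adjusted p = 0.0415), with overlapping groups.

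Members that led in culture did not separate here. Insig1 had 27.4, 26.2, 25.5, 22.3 and 27.7 CPM in IR libraries, 25.7, 24.7, 29.2, 26.8 and 30.00 CPM in IS libraries and 22.9, 32.7, 21.3, 24.7 and 24.5 CPM in control libraries. Hmgcs1 had 61.8, 57.8, 61.7, 68.2 and 55.7 CPM in IR libraries, 59.9, 62.8, 72.4, 72.6 and 69.5 CPM in IS libraries and 67.8, 66.7, 60.6, 67.8 and 65.6 CPM in control libraries. Their log2 fold changes over control were 0.04 ± 0.11 and -0.11 ± 0.07 (SE) for IR and 0.12 ± 0.11 and 0.04 ± 0.07 (SE) for IS. For Fdps and Cyp51 the log2 fold changes over control were -0.08 ± 0.10 and -0.13 ± 0.13 (SE) for IR and -0.05 ± 0.10 and 0.01 ± 0.13 (SE) for IS.

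The brain calls were fragile. Without the filter on low counts 0 members were called in IR against control and 0 in IS against control. The count for IR against control was 0 without any of IR libraries 1 and 3 and control libraries 2, 3 and 4, was 1 without any of IR libraries 2 and 5 and control libraries 1 and 5, and was 3 without IR library 4. Without control library 5 the 1 member called was Lss, higher in IR, and neither Erg28 nor Stard4 passed. For IS against control the Erg28 call was lost without any of IS libraries 1, 2 and 5 and control libraries 2, 3 and 5, with adjusted p of 0.058 to 0.0825. Without IS library 1 Insig2 was called lower instead, and without control library 5 Lss was called higher instead. For IR against IS, Fdft1 was called lower and Lbr higher without IS library 2.

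The brain libraries are labelled as 4T1 mammary adenocarcinoma cells, and their markers go in part against that label. Epcam had 0.51 to 1.70 CPM in IR, 0.28 to 2.64 CPM in IS and 0.62 to 2.91 CPM in control libraries, against 170.1 to 193 CPM in untreated cultured cells, a level set across separately scaled tables. Cdh1 and Krt7 had at most 7.01 and 5.57 CPM in any brain library, against 442 to 459 and 670.3 to 696 CPM in untreated cultured cells. Krt8, Krt18 and Cldn4 were present, at 19.5 to 30.7, 87.1 to 101.2 and 71.7 to 111.3 CPM in brain control libraries. Untreated cultured cells had 1198 to 1225, 880 to 905 and 131.8 to 140.4 CPM of these genes. The 6 epithelial markers summed to 136 to 216 CPM in IR, 116 to 240 CPM in IS and 181 to 250 CPM in control brain libraries. Fibroblast markers summed to 376 to 666 CPM in IR, 404 to 674 CPM in IS and 482 to 685 CPM in control libraries. The brain values are therefore given for the libraries as labelled and not as levels in 4T1 cells. All 5 endothelial markers were higher in IR and 3 in IS than in control libraries, with a sum of 325 to 691 CPM in IR, 98.5 to 539.9 CPM in IS and 79.5 to 112 CPM in control libraries. Of 6 leukocyte markers 4 were lower in IR than in control libraries, with a sum of 413 to 1967 CPM in IR, 860.0 to 3589 CPM in IS and 1685 to 3324 CPM in control libraries. Of 4 astrocyte markers 1 was higher in IR and 1 in IS than in control libraries. Of 2 oligodendrocyte markers tested, 1 was higher in IR and 1 in IS. Of 4 epithelial markers tested, 1 was lower in IS. The part of these shifts in the Erg28 and Stard4 results was not tested. Of the other pathway lists, 1 of 14 isoprenoid genes rose and 3 of 18 transport genes fell and 1 rose in IR against control. In IS against control 1 of 14 and 1 of 18 fell. Among all genes tested, 11.7% were called in IR and 6.46% in IS against control, in either direction. No gene of SREBP processing passed in the brain comparisons.

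In primary tumours 0 members were called between IR and control libraries, and 0.0% of the 12962 genes tested were called by edgeR. DESeq2 also called 0 members, and 124 of all genes tested. Msmo1 and Idi1 were the 2 members with an unadjusted p under 0.05, and the smallest adjusted p of the list was 0.61. Msmo1 had 37.8, 61.02, 50.3, 54.6 and 55.6 CPM in IR tumours and 70.8, 59.2, 59.2 and 99.6 CPM in control tumours. Idi1 had 41.00, 89.7, 60.7, 55.4 and 53.8 CPM in IR tumours and 76.00, 82.7, 79.6 and 105 CPM in control tumours. The groups of each overlapped, with log2 fold changes of -0.48 ± 0.19 and -0.51 ± 0.21 (SE).

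Tumours with the same replicate number were also taken as 4 pairs. The labels state no pairing, and 1 control carries another number in its library name. Deviations of same-numbered tumours correlated at 0.760 for number 2 and at 0.107 to 0.219 for the others. The paired values are therefore only a description. Fdft1, Erg28 and Insig2 were the 3 members lower in the IR tumour of all 4 pairs, and 0 members were higher in all 4. The share of all genes with such an order was not computed, so these counts are not a result about the members. Fdft1 had 58.8, 68.5, 56.4, 69.9 and 86.02 CPM in IR tumours 1 to 5 and 78.8, 71.1, 80.1 and 95.6 CPM in control tumours 1 to 4. In the fit with pairs as a block its log2 fold change was -0.36 ± 0.12 (SE, unadjusted p = 0.0156, adjusted p = 0.254 with edgeR). That fit called 0 members, and Fdft1, Idi1 and Msmo1 were the 3 with an unadjusted p under 0.05.

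The member median was -0.13, with 21 negative and 6 positive values, where the median of all genes was 0.01. Insig1 had 67.4, 62.5, 64.01, 64.2 and 52.1 CPM in IR tumours and 52.96, 53.4, 61.3 and 67.1 CPM in control tumours. Srebf2 had 150.2, 208, 146, 136 and 134 CPM in IR tumours and 142, 164, 161 and 173 CPM in control tumours. Neither gene separated the groups. IR tumour 1 was the lowest of the 9 libraries for 13 members and control tumour 4 the highest for 8. Skeletal muscle markers summed to 10014 CPM in IR tumour 4 and 1498 CPM in IR tumour 5, against 7.90 to 15.02 CPM in the other IR tumours and 10.8 to 201 CPM in controls. Fibroblast markers summed to 4547 to 8643 CPM in IR tumours and 2701 to 5078 CPM in controls, and the part of either shift was not tested. None of the genes of the other 3 lists passed in tumours. With each of the 9 libraries left out in turn the count of members called was 0. The spread between libraries was wider in tumours than in culture, with a biological coefficient of variation of 0.326 in tumours and 0.0576 in culture. The SE of the members' log2 fold changes ran from 0.11 to 0.24 in tumours, against 0.04 to 0.16 for IR exosomes over untreated cells in culture.

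**Figure D5:**
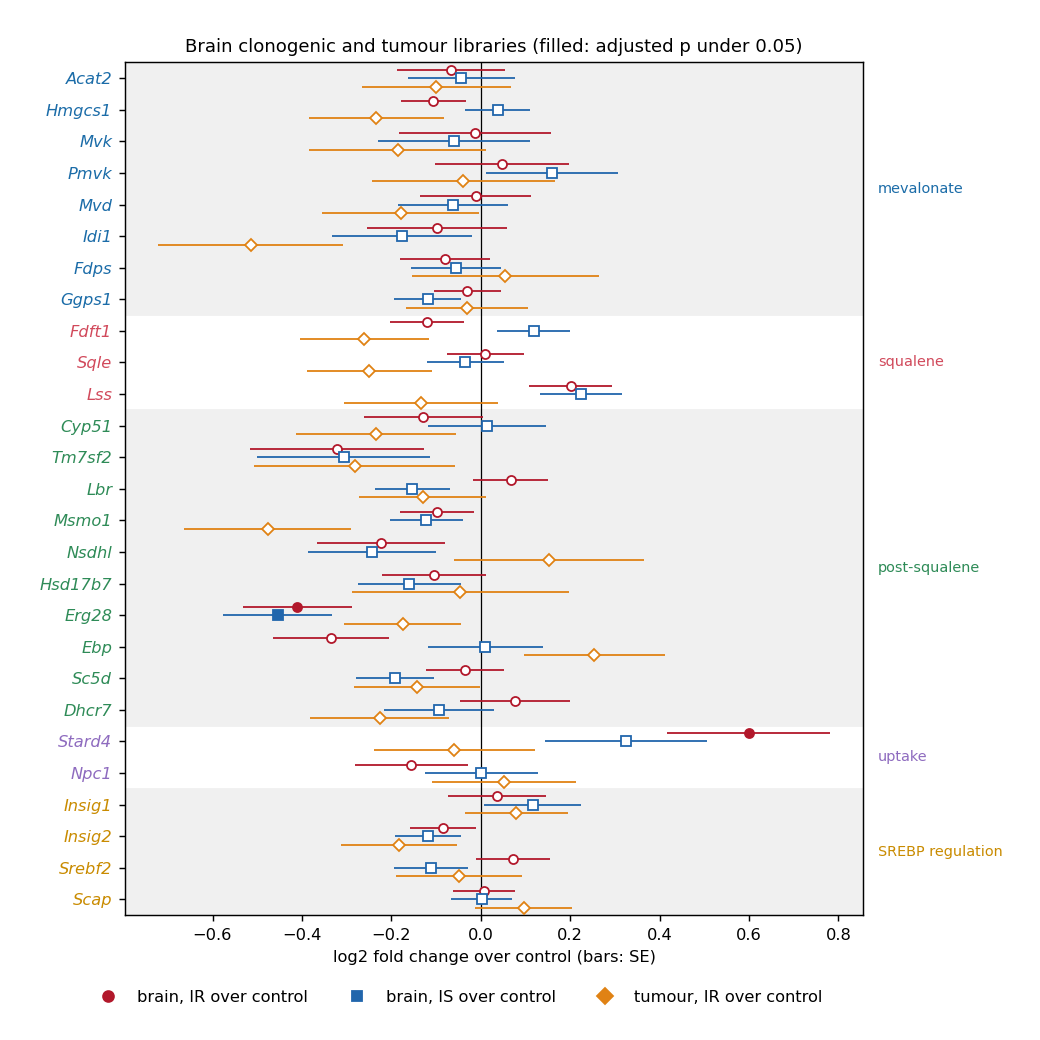
log2 fold change over control of each member in IR (circles) and IS (squares) brain clonogenic libraries and in IR tumours (diamonds), with bars of 1 SE, grouped by pathway step. Filled symbols have an adjusted p under 0.05. The filled symbols are Erg28 in both brain comparisons and Stard4 in the brain IR comparison, and the other symbols are open. In tumours 21 of the 27 diamonds lie left of 0.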

How the data were processed

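Per the labels' protocols, libraries came from a stranded messenger RNA kit and were read from both ends. The authors deposited expected counts per gene, from RSEM for the in vitro and brain tables and from salmon for the tumour and miRNA tables, per the file headers and names. Per the submitters' processing notes, DESeq2, featureCounts, STAR and Trimmomatic were among the tools, and the builds were GRCm38 (mm10) and GRCm39 (mm39). The build and strand setting behind a given table are not stated in those notes. Of the in vitro columns, 3 were left out as matching no sample. IR columns of the in vitro and brain tables were tied to their group, and their numbers are those of the column headers. Genes were named by identifier through the tumour table.

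Groups follow the sample titles. Expected counts were rounded, and a gene entered the test if 3 or more libraries had at least 3 CPM. Each table was fitted alone, with all its groups and no covariate, with edgeR 4.0.16 (quasi-likelihood test, R 4.3.3) after TMM scaling, with Benjamini-Hochberg adjustment over 10888, 12924, 12962 and 10751 genes (in vitro, brain, tumour, miRNA). The SE was taken as the log2 fold change over the root of its F statistic. The script was tested on simulated counts. Alternatives were DESeq2 1.42.0, 2 other scalings, no filter, a replicate block, only the compared groups and leaving out each library. Replicates of each group differed by more than sampling noise (chi-square per degree of freedom 2.19 or more for every pair). Exon overlaps come from GENCODE M21 on GRCm38.

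The members, lists and naming rule (all members, and up to 3 called genes of each other list and comparison) were chosen with earlier results of these data known. Replicate numbers were taken as pairs in the tumours alone, where deviations of same-numbered libraries correlated at 0.139, 0.760, 0.219 and 0.107. Such values reached 0.234 in the brain libraries, which were not taken as pairs. The 4th tumour control carries another number in its library name than in its title.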

Additional observations from a re-analysis of the deposited data

Results flagged for a closer look

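Among 135 sets of a member in a group of 4 or 5 libraries, 11 held a library that stood apart from the others of its group by Dixon's 95% criterion, where chance gives about 1 in 20. In brain libraries, Sc5d had 51.0 CPM in IR 3 against 38.5 to 41.4 CPM in the other IR libraries. Msmo1 had 35.7 CPM in IS 3 against 30.6 to 31.7 CPM in the others, Stard4 had 13.9 CPM in IS 2 against 8.96 to 10.0 CPM, and Insig2 had 83.6 CPM in IS 1 against 62.9 to 66.2 CPM. Mvd had 16.0 CPM in control 4 against 12.2 to 13.3 CPM in the other controls, and Ebp had 20.2 CPM in control 3 against 16.9 to 17.4 CPM. Without IS 1, Insig2 was called lower in IS than in control brain libraries, at an adjusted p of 0.0406.

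In tumours, Insig2 had 73.0 CPM in IR 1 against 51.0 to 56.4 CPM in the other IR tumours, and Srebf2 had 208 CPM in IR 2 against 134 to 150.2 CPM. Hmgcs1 had 159 CPM in control 4 against 104 to 109 CPM in the other controls, Hsd17b7 had 12.3 CPM in control 4 against 9.12 to 9.40 CPM, and Dhcr7 had 50.3 CPM in control 1 against 40.5 to 41.7 CPM. Control tumour 4 thus supplied 2 of the 3 high controls. Groups of 2 and 3 libraries, in culture and in the miRNA experiment, are too small for this criterion.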

How the results depend on the processing

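No called direction of a member reversed under any setting run. Of 2916 single-gene alternatives 2830 kept their side of the threshold, 72 lost a call and 14 gained one, and 110 that were uncalled in both settings changed sign. Leaving out each library in turn gave 19 to 21 members called for IR exosomes against none, 21 in each case for IS exosomes, 7 to 12 for IR against IS exosomes, 20 to 24 in the miRNA experiment, 0 in each case in tumours, and 0 to 3, 0 to 1 and 0 to 2 for brain IR against control, IS against control and IR against IS. Without the filter on low counts, brain IR against control and brain IS against control each gave 0 members. With a replicate block the counts were 20, 21 and 12 in the 3 culture comparisons, 0, 0 and 0 in the brain comparisons, 0 in the paired tumour fit and 18 in the miRNA experiment. The labels state no pairing by replicate number, so the block is only a description, in tumours as well. Upper quartile scaling gave 20 members higher and 2 lower in the miRNA experiment, and leaving out the filter moved the median of all genes there from -0.01 to -0.14 on the log2 scale, with the member median at 0.73. The causes were not tested. Tumour libraries were deeper than those of culture and brain. The miRNA experiment rests on 2 libraries titled scramble.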
